A study of Mus musculus with 12 samples.

Results

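RAB GTPases are small membrane-bound switches of vesicle traffic, and their mRNA levels were followed here in mouse bone marrow-derived macrophages (BMDMs) exposed to IL-4, to LPS or to one after the other. The members were all rows of the deposited gene tables whose symbol is Rab followed by a number and at most a letter and a further digit, which gave 58 genes of 23847 rows. Of these 58 genes, 42 reached 1 FPKM (mapped fragments scaled to transcript length and to all mapped fragments of the library) in at least 1 library and were tested, together with 11191 rows in all. The other 16 stayed below 1 FPKM in every library and are accounted for with the levels.

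Each RAB protein cycles between a GTP-bound form that recruits effectors to a membrane and a GDP-bound form that is held in the cytosol. Exchange factors (GEFs) load GTP, GTPase-activating proteins (GAPs) trigger its hydrolysis, and escort proteins and GDP dissociation inhibitors handle the lipid anchor. Different RABs mark different organelles, and in macrophages they direct the uptake of particles, the maturation of phagosomes into degradative compartments, the delivery of Toll-like receptors and the release of cytokines and granules. IL-4 drives alternative polarization of macrophages through STAT6, and LPS drives the inflammatory response through TLR4.

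All cells were wild type (Wt) BMDMs from C57BL/6 mice 8 to 12 weeks old, obtained by culture of bone marrow cells for 6 days with L929 supernatant as the source of MCSF. The control libraries came from BMDMs without IL-4 or LPS, the IL-4 libraries from BMDMs kept in IL-4 at 20 ng/ml for 24 h, the LPS libraries from BMDMs given LPS at 100 ng/ml for 3 h, and the IL-4+LPS libraries from BMDMs given both in that order. The LPS dose is the one in the labels, and the study's methods give it in nM instead. Each of the 4 groups held 3 libraries of poly-A-selected RNA. The labels number the replicates, and the study describes 3 individual animals from independent experiments. Neither says which animal or experiment each library came from. With 3 animals for 12 libraries, libraries of different groups may share an animal. The fit reported here treats the libraries as unpaired. The tests measure the spread between these libraries.

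The summed FPKM per library ran from 457583 to 495025, and the libraries' relative depth, read from the steps between low values, ran from 0.991 to 3.30 with control replicate 1 set to 1. Macrophage genes were high throughout, with Csf1r at 411 to 932 FPKM and Cd68 at 998 to 1881 FPKM. T cell, fibroblast and erythroid markers stayed below 1 FPKM, and the B cell, dendritic cell and mast cell lists each had 1 gene above it (Cd79b, Zbtb46 and Mcpt8). Neutrophil markers were detected: the 6 found summed to 372-961 FPKM in control, 233-440 after IL-4, 566-1162 after LPS and 466-934 after IL-4+LPS. S100a9 and S100a8 reached 517 and 447 FPKM, whereas Ngp, Camp, Ltf and Elane peaked at 130, 41.0, 23.1 and 6.96. Which cells made this RNA and its part in the RAB values were not tested. In bulk RNA, fewer cells of a type and less RNA per cell cannot be told apart.

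Levels compared between genes are in FPKM, which is per transcript length. Rab7, which drives fusion of late endosomes and phagosomes with lysosomes, and Rab5c, an early endosome RAB, were the highest and second highest RAB genes in every library. Rab7 measured 300, 295 and 307 FPKM in the control libraries, 296, 300 and 318 after IL-4, 257, 263 and 261 after LPS, and 268, 253 and 272 after IL-4+LPS. The libraries with LPS were thus all lower than those without it, by a small margin. Rab5c measured 218, 262 and 256 FPKM in control, 204, 264 and 259 after IL-4, 215, 247 and 237 after LPS, and 207, 250 and 245 after IL-4+LPS. The 4 groups overlapped for Rab5c, and replicate 1 was the lowest library in each of them. Together these genes held 26.7% to 31.4% of the RAB FPKM of a library.

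Below them the order depended on the treatment. By mean FPKM in control, Rab1b (111 ± 22.9, SD, n = 3), Rab8b (103 ± 16.1), Rab31 (100.3 ± 6.23) and Rab1 (98.4 ± 2.79) followed Rab5c and did not differ beyond their spread. Rab1 and Rab1b serve traffic from the endoplasmic reticulum to the Golgi, Rab8b acts in traffic to the cell surface, and Rab31 acts on early endosomes and in transport from the Golgi to them. In IL-4+LPS libraries Rab31 stood at 23.9 ± 4.57 FPKM, below 21 other RAB genes, whereas 4 stood above it in control. Rab10 was at 57.8 ± 3.78 FPKM in control and 99.5 ± 7.27 after IL-4+LPS. The 58 genes summed to 1796 ± 39.0 FPKM in control, 1796 ± 48.7 after IL-4, 1806 ± 32.6 after LPS and 1687 ± 57.5 after IL-4+LPS (mean ± SD, n = 3), which was 0.344% to 0.397% of all FPKM.

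The genes below 1 FPKM were mostly RABs known from neurons, epithelia or secretory cells. Rab3b, Rab3c, Rab9b, Rab39b, Rab40b, Rab17, Rab26 and Rab27b did not exceed 0.075 FPKM in any library, and Rab25, Rab36, Rab15 and Rab37 did not exceed 0.203. The highest values of the remaining untested genes were 0.473 FPKM for Rab42, 0.629 for Rab30, 0.865 for Rab33a and 0.895 for Rab44. Rab30, a Golgi RAB, was at 0.140, 0.629 and 0.303 FPKM in the LPS libraries and at or below 0.076 in the other 9, a set of values below the level that was tested.

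**Figure D1:**
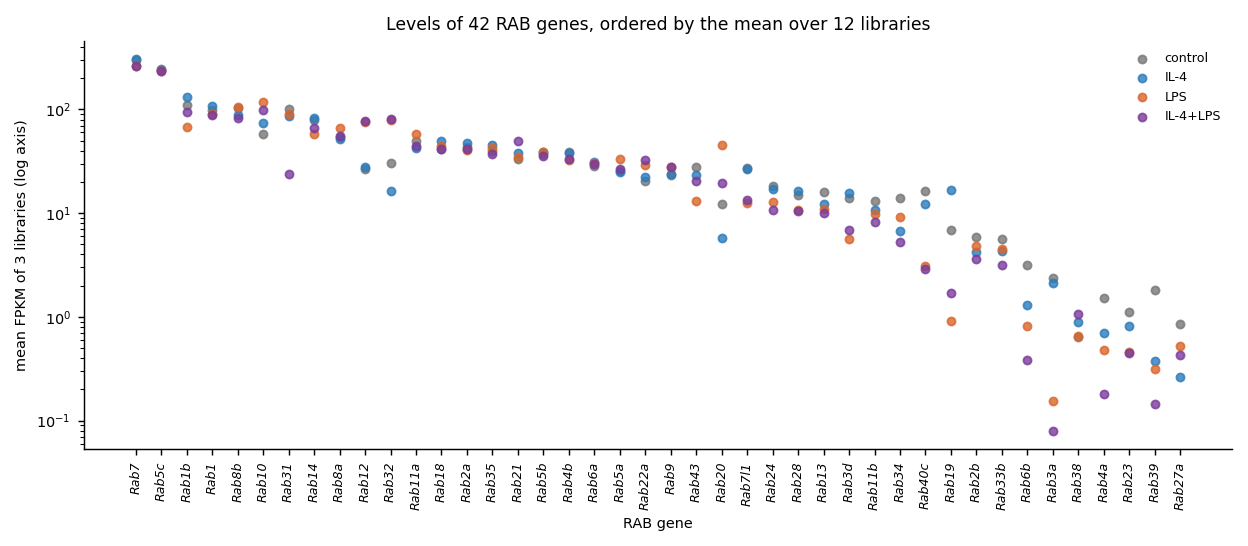
Mean FPKM of the 42 tested RAB genes in each group of 3 libraries (y axis, logarithmic), ordered by the mean over all 12 libraries (x axis). Rab7 and Rab5c are the highest in all 4 groups, the 4 points lie apart for Rab20 and Rab19, and for Rab31 the IL-4+LPS point lies below the other 3.

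The start-site windows of Rab19, Rab31, Rab20 and Rab32, on which the comparisons turn, are shown, from 250 bases before to 50 bases after the RefSeq start on GRCm38.p6, 5′ to 3′ on the strand of the gene. They are at chr6:39381103-39381402 on the plus strand for Rab19, chr17:65772703-65773002 on the minus strand for Rab31, chr8:11478591-11478890 on the minus strand for Rab20 and chr10:10558158-10558457 on the minus strand for Rab32. These genes lie on mm10 at chr6:39381428-39390379, chr17:65651726-65772752, chr8:11453977-11478499 and chr10:10545039-10558207 in the deposited tables. Capitals mark a match to 1 of 4 motifs sought on both strands: the kappaB motif, the STAT motifs TTCNNNNGAA and TTCNNNGAA, and the AP-1 motif TGANTCA.
Rab19: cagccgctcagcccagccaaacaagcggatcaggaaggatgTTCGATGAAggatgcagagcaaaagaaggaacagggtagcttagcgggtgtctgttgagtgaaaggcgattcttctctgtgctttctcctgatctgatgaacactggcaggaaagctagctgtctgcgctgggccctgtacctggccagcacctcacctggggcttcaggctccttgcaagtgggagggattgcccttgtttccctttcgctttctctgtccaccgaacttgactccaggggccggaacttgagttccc
Rab31: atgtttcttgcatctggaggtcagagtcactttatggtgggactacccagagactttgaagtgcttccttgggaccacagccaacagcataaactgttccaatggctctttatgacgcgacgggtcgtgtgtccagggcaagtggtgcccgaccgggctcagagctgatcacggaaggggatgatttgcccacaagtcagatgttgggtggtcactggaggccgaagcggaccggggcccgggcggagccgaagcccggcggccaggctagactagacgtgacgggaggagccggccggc
Rab20: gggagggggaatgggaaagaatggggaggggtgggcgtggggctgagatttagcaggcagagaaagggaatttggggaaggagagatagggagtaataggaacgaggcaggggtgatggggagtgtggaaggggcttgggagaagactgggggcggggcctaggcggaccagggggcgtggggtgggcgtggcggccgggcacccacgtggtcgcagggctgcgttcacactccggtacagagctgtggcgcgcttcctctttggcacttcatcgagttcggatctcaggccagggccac
Rab32: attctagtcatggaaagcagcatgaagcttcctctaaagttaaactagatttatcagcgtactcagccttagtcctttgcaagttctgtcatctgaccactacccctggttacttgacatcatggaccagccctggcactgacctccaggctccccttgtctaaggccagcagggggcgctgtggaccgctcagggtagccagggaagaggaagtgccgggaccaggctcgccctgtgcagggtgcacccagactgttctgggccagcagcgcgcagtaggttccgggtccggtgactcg
Rab19 holds 1 match to TTCNNNGAA, which begins at position -209 from the start site, and the windows of Rab31, Rab20 and Rab32 hold no match. Over the 20 genes plotted by library, with 25 windows in RefSeq, the only other match was a kappaB motif in Rab28. Of 32851 promoter windows in the table, 8.5% hold the kappaB motif, 7.0% TTCNNNNGAA, 8.3% TTCNNNGAA and 7.8% the AP-1 motif. The 25 windows had a median GC content of 63.3% and 23 CpG dinucleotides, beside 52.7% and 7 over all windows. A match describes the letters of the window and is not a measured binding site.

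LPS given alone for 3 h raised 7 of the 42 tested RAB genes and lowered 19 (limma on log2(FPKM + 1), Benjamini-Hochberg adjusted p below 0.05). These are 16.7% and 45.2% of the members, beside 16.9% and 57.7% of all tested rows. On the deposited scale the higher share was thus close to the background and the lower share was below it. The genes that rose were Rab20, Rab12, Rab32, Rab10, Rab22a, Rab5a and Rab8a, and the first 4 rose at least 2-fold. The genes that fell at least 2-fold were Rab19, Rab40c, Rab3a, Rab3d, Rab6b, Rab39, Rab43 and Rab7l1. Of the 19 genes lowered, 5 (Rab3a, Rab4a, Rab6b, Rab23 and Rab39) reached 1 FPKM in no library with LPS, so they were tested by virtue of the groups where they were high.

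The median log2 fold change under LPS was -0.44 over all rows and -0.22 over the RAB genes, so most rows shifted down together on the FPKM scale. When each library was rescaled to the same median over the rows at 1 FPKM or more in all libraries, 18 RAB genes were called higher and 10 lower. These are 42.9% and 23.8% of the members beside 26.5% and 39.8% of all rows, so the higher share was then above the background. The 7 genes called higher on the deposited scale were all among the 18, and the 10 called lower were all among the 19. Quantile normalization called 10 higher and 15 lower (share of all rows not computed), and it differed from median scaling for several genes. Small falls depended on the scaling. Rab7 fell by 0.21 on the log2 scale on deposited FPKM and lay 0.16 above control after median scaling, past the threshold both times. Under quantile normalization Rab7 fell by 0.44 (adjusted p = 0.000162). Rab33b fell by 0.29 on deposited FPKM but lay at 0.02 after median scaling and 0.23 after quantile normalization.

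**Figure D2:**
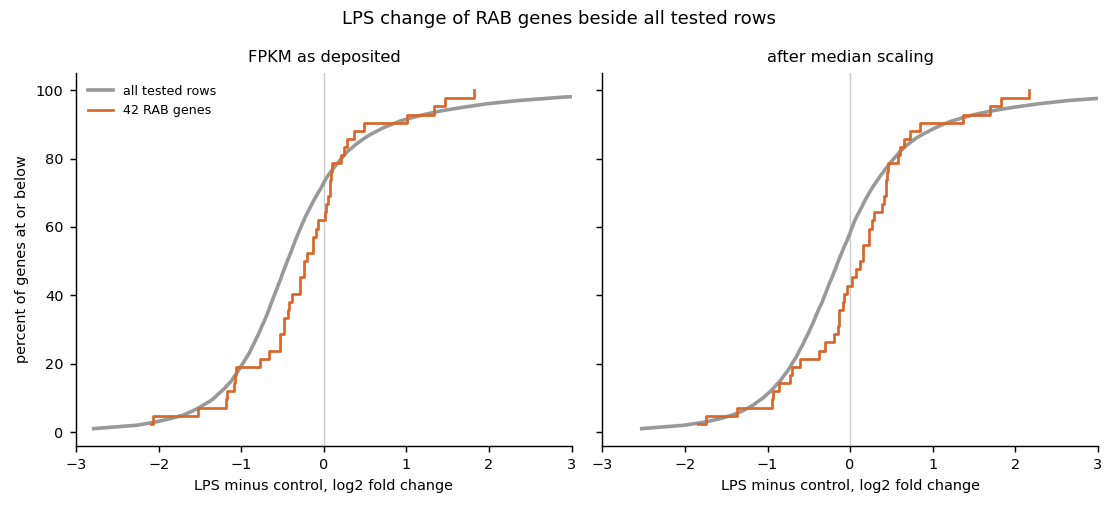
Cumulative percent of genes (y axis) at or below a given log2 fold change of LPS minus control (x axis), for the 42 RAB genes and all 11191 tested rows, on deposited FPKM (left) and after median scaling (right). The RAB curve lies to the right of the curve of all rows through the middle of both panels, with medians of -0.22 and -0.44 on the left and 0.14 and -0.14 on the right.

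Among the 7 tested RABs of late endosomes, lysosomes and phagosomes, 1 gene, Rab20, was called higher and 5 lower under LPS on the deposited scale. Of all rows 16.9% were higher and 57.7% lower on that scale, and 26.5% and 39.8% after median scaling. No count of a role group was tested against these shares. After median scaling 3 of the 7 RABs were higher (Rab20, Rab7 and Rab9) and 2 lower (Rab39 and Rab7l1), whereas under quantile normalization Rab7 stayed lower. Rab20 associates with maturing phagosomes. It measured 12.2, 13.1 and 11.5 FPKM in control, 4.85, 6.31 and 6.07 after IL-4, 43.7, 46.0 and 47.3 after LPS, and 17.97, 21.6 and 19.2 after IL-4+LPS. The 4 groups did not overlap, with IL-4 lowest and LPS highest. LPS raised it by 1.82 ± 0.10 (log2 fold change ± SE, adjusted p = 8.76e-08), which is 3.53-fold.

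Rab39, a RAB of phagosome acidification and autophagy, went the other way from a low level. Its values were 1.65, 1.98 and 1.78 FPKM in control, 0.242, 0.490 and 0.380 after IL-4, 0.437, 0.254 and 0.252 after LPS, and 0.152, 0.095 and 0.183 after IL-4+LPS. Only the control libraries exceeded 1 FPKM, so Rab39 was tested by virtue of the group where it was high. Rab7l1, also known as Rab29 and a partner of the kinase LRRK2 at the Golgi and lysosomes, measured 25.9, 28.0 and 27.3 FPKM in control, 24.2, 28.7 and 26.5 after IL-4, 10.1, 14.2 and 13.4 after LPS, and 14.3, 11.7 and 14.3 after IL-4+LPS. Its 6 libraries with LPS all lay below its 6 libraries without, and LPS lowered it by -1.06 ± 0.12 (log2 fold change ± SE, adjusted p = 1.89e-05). Rab24, linked to autophagy, and Rab34, linked to phagosome maturation, fell by 0.49 and 0.53 on the log2 scale and did not pass the threshold after median scaling. Under quantile normalization Rab24 passed (-0.236, adjusted p = 0.00399) and Rab34 did not (-0.195, adjusted p = 0.379). For Rab24, 62.4% of the exonic bases in GENCODE vM21 overlap Prelid1 on the other strand, and Prelid1 stood at 119 to 172 FPKM across libraries, so reads of the pair cannot be told apart without strand. Rab9, which returns receptors from late endosomes to the Golgi, was not called in any comparison on the deposited scale, and after median scaling it was called higher under LPS without IL-4 (0.60, adjusted p = 0.00385) and after it (0.58, adjusted p = 0.00515).

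Rab32 and Rab38 build melanosomes and other lysosome-related organelles, and Rab32 also acts on vacuoles that hold bacteria in macrophages. Rab32 measured 27.9, 31.4 and 33.1 FPKM in control, 16.1, 16.8 and 16.6 after IL-4, 72.0, 78.9 and 87.0 after LPS, and 60.2, 89.5 and 91.5 after IL-4+LPS. Both groups with LPS lay above control and IL-4 lay below it, with no overlap among these 3 levels. LPS alone raised Rab32 by 1.34 ± 0.14 (log2 fold change ± SE, adjusted p = 1.10e-05). Rab38, at 0.484 to 1.35 FPKM over the 12 libraries, was not called in any comparison.

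On the deposited scale the early endosome RABs were the only role group of more than 2 tested genes with no member called lower under LPS. Of all rows 16.9% were higher and 57.7% lower. The group holds only 6 genes, and its counts were not tested against the shares of all rows. Rab22a, which acts in recycling from early endosomes, rose by 0.49 ± 0.11 and Rab5a, which controls fusion of early endosomes, by 0.37 ± 0.13 (log2 fold change ± SE, adjusted p = 0.00229 and 0.0225). For Rab5a, 8 of the 12 fits that each left out 1 library kept it past the threshold, and it was lost without control replicate 2 or 3 or LPS replicate 1 or 3. The intervals of Rab5b (-0.13 to 0.23) and Rab5c (-0.34 to 0.19) spanned 0, and neither gene was called in any comparison on the deposited scale. After median scaling 4 of the 6 were called higher under LPS, Rab5a, Rab5b, Rab21 and Rab22a, and 0 lower. The shares of all rows were then 26.5% higher and 39.8% lower. Under quantile normalization Rab5a and Rab22a were higher, Rab5b and Rab21 were not called, and Rab31 and Rab5c were lower (adjusted p = 0.0443 and 0.0378).

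RABs of secretion and the plasma membrane, a group in which Rab12 was placed here, had 3 of 8 tested genes higher and 3 lower under LPS. Of all rows 16.9% were higher and 57.7% lower. After median scaling 4 of the 8 were higher and 2 lower, beside 26.5% and 39.8% of all rows. Rab10, which carries TLR4 and glucose transporters to the plasma membrane, measured 61.4, 53.9 and 58.0 FPKM in control, 75.0, 72.3 and 74.0 after IL-4, 138, 102 and 113 after LPS, and 107, 92.8 and 98.3 after IL-4+LPS. The order was control, IL-4, IL-4+LPS and LPS, with overlap only between the last pair. Rab12, which acts in the degradation of transferrin receptor, measured 27.1, 28.6 and 23.7 FPKM in control, 29.4, 26.9 and 27.5 after IL-4, 67.7, 79.0 and 78.4 after LPS, and 71.8, 81.0 and 80.5 after IL-4+LPS. The values formed a low and a high level that followed LPS alone, with a log2 fold change of 1.47 ± 0.09 without IL-4 and 1.44 ± 0.09 after it (adjusted p = 1.92e-07 and 2.53e-07). Rab8a, an exocytic RAB, rose by 0.28 ± 0.05 (adjusted p = 0.000412).

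Rab3d and Rab3a, RABs of regulated secretion, fell under LPS. Rab3d, a RAB of secretory granules, measured 13.2, 14.5 and 14.7 FPKM in control, 15.5, 15.6 and 15.5 after IL-4, 5.32, 5.67 and 5.92 after LPS, and 7.62, 6.11 and 6.85 after IL-4+LPS. Rab3a, its homologue in synaptic vesicle release, was low in control (1.74, 2.81 and 2.56 FPKM) and IL-4 (1.55, 2.22 and 2.54) and did not exceed 0.195 in the 6 libraries with LPS. LPS lowered Rab3d by -1.19 ± 0.08 and Rab3a by -1.53 ± 0.14 (log2 fold change ± SE, adjusted p = 3.68e-07 and 3.56e-06), and Rab3a was tested by virtue of the libraries without LPS. Rab8b, the group's most abundant gene over the 12 libraries, measured 122, 91.0 and 97.6 FPKM in control and 94.3, 107 and 112 after LPS, 107, 75.3 and 82.7 after IL-4 and 76.3, 85.4 and 88.3 after IL-4+LPS, and it was not called in any comparison on the deposited scale. After median scaling it was called higher under LPS alone (0.39, adjusted p = 0.047), and under quantile normalization it was not called (-0.106, adjusted p = 0.544).

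None of the 10 tested ER and Golgi RABs was called higher under LPS on the deposited scale, and 5 were called lower. Of all rows 16.9% were higher and 57.7% lower, so the lower count was near the background. After median scaling 4 were called higher (Rab1, Rab18, Rab2a and Rab6a) and 3 lower (Rab19, Rab43 and Rab6b). The shares of all rows were then 26.5% and 39.8%. Under quantile normalization Rab1 was lower (-0.275, adjusted p = 0.00763), and Rab18, Rab2a and Rab6a were not called. Rab2b and Rab33b were higher there (0.264 and 0.23, adjusted p = 0.0443 and 0.0454). Rab19, a little-studied RAB placed at the Golgi, measured 7.66, 6.68 and 6.36 FPKM in control, 18.7, 15.5 and 16.5 after IL-4, 1.66, 0.685 and 0.416 after LPS, and 2.85, 1.12 and 1.17 after IL-4+LPS. LPS lowered it by -2.09 ± 0.26 without IL-4 and by -2.78 ± 0.26 after it (log2 fold change ± SE, adjusted p = 2.98e-05 and 4.53e-06). Rab6b, a form of the retrograde Golgi RAB found mainly in neurons, fell from 3.96, 3.30 and 2.21 FPKM in control to 0.978, 0.803 and 0.680 after LPS, and stood at 1.63, 1.19 and 1.10 after IL-4 and 0.481, 0.362 and 0.316 after IL-4+LPS. Its widely expressed relative Rab6a, at 27.0 to 32.5 FPKM, was not called in any comparison on the deposited scale. After median scaling it was called higher under LPS without IL-4 (0.43, adjusted p = 0.000326) and after it (0.30, adjusted p = 0.00399). Under quantile normalization neither was called (adjusted p = 0.101 and 0.485).

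Rab1b measured 84.1, 124 and 123 FPKM in control, 107, 147 and 140 after IL-4, 60.8, 76.4 and 67.6 after LPS, and 80.9, 102 and 97.9 after IL-4+LPS. Replicate 1 was the lowest in each group, and the fall under LPS (-0.67 ± 0.17, log2 fold change ± SE, adjusted p = 0.0049) was -0.31 after median scaling, with an adjusted p of 0.141. Under quantile normalization the fall was -0.80 (adjusted p = 0.0012). Rab14, the most abundant RAB of the recycling group and a link between endosomes and the Golgi, measured 80.6, 80.5 and 78.1 FPKM in control, 81.7, 77.5 and 87.2 after IL-4, 62.8, 55.9 and 57.2 after LPS, and 64.2, 65.5 and 68.3 after IL-4+LPS. All 6 libraries with LPS lay below the 6 without on the deposited scale. For LPS minus control the difference was -0.07 after median scaling (adjusted p = 0.34) and -0.53 after quantile normalization (adjusted p = 7.91e-05). Rab11a and Rab35, which recycle membrane to the surface, were not called under LPS alone on the deposited scale. After median scaling both were called higher (0.57 and 0.46, adjusted p = 0.000336 and 0.00256), and under quantile normalization neither was (adjusted p = 0.14 and 0.167). Rab4a, a fast recycling RAB at 1.44 to 1.65 FPKM in control, fell by 0.77 on the log2 scale, and it reached 1 FPKM only in the control libraries.

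Rab40c, which carries a SOCS box and joins ubiquitin ligases, measured 14.7, 17.4 and 16.6 FPKM in control, 10.5, 13.3 and 12.8 after IL-4, 2.56, 3.69 and 3.11 after LPS, and 3.15, 2.70 and 2.85 after IL-4+LPS. Control lay above IL-4, and IL-4 above both groups with LPS, with no overlap. Rab28, a RAB of cilia, measured 13.3, 14.6 and 16.8 FPKM in control, 16.3, 17.6 and 15.0 after IL-4, 11.8, 10.7 and 9.97 after LPS, and 10.9, 10.7 and 9.71 after IL-4+LPS. LPS lowered Rab40c by -2.07 ± 0.12 and Rab28 by -0.43 ± 0.10 (log2 fold change ± SE, adjusted p = 1.25e-07 and 0.00242). The fall of Rab28 was -0.08 after median scaling, with an adjusted p of 0.439.

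**Figure D3:**
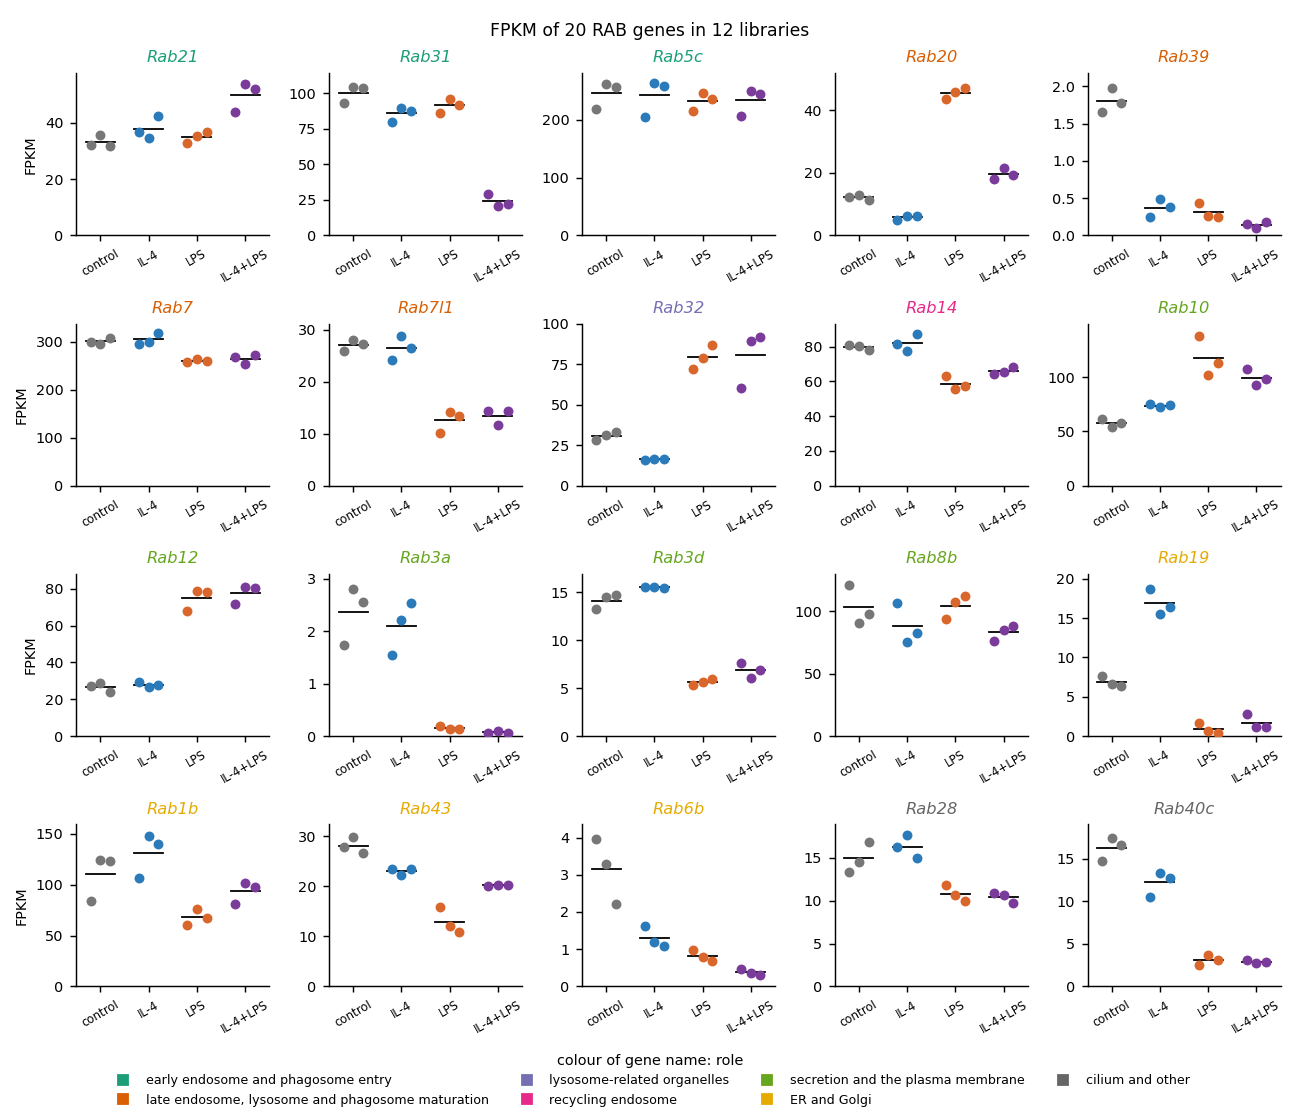
FPKM (y axis, from 0) of 20 RAB genes in the 3 libraries of each group (points) with the group mean (line). Rab31 is low only in IL-4+LPS, Rab20 and Rab32 are lowest in IL-4 and high with LPS, and Rab19 is highest in IL-4.

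IL-4 alone for 24 h raised 2 of the 42 tested RAB genes and lowered 12, which are 4.76% and 28.6% of the members beside 16.0% and 21.0% of all rows. Without control replicate 2, 7 were lower. With the replicate number added to the model as a block, 8 were higher and 12 lower (share of all rows not computed). The median log2 fold change was -0.05 both over the members and over all rows. The risers without the block were Rab19, by 1.18 ± 0.26, and Rab10, by 0.35 ± 0.10 (log2 fold change ± SE, adjusted p = 0.00502 and 0.0226). The call on Rab10 was kept in 8 of 12 fits that left out 1 library, all but those without control replicate 2 or 3 or IL-4 replicate 1 or 3, and it was lost under quantile normalization (adjusted p = 0.1).

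The genes lowered by IL-4 lay in every role group except the early endosome RABs, of which 0 of 6 were called. With 21.0% of all rows lower, a count of 0 in so small a group is not read as a trait of it. Rab39 fell by 1.03, Rab20 by 0.98, Rab34 by 0.95, Rab32 by 0.86 and Rab6b by 0.84 on the log2 scale, with adjusted p from 2.29e-05 to 0.00188 (limma). Rab34 measured 11.1, 15.4 and 15.1 FPKM in control and 5.28, 7.29 and 7.53 after IL-4, 7.77, 10.5 and 9.52 after LPS and 4.22, 5.82 and 5.75 after IL-4+LPS. Its IL-4 libraries lay below all control libraries, and its IL-4+LPS libraries below all LPS libraries. The other genes lowered were Rab4a, Rab27a, Rab2b, Rab40c, Rab13, Rab33b and Rab11b, by 0.25 to 0.58 on the log2 scale. Under quantile normalization Rab4a, Rab27a, Rab33b and Rab11b did not pass (adjusted p = 0.0672, 0.153, 0.0638 and 0.0572). After median scaling Rab11b did not pass either (adjusted p = 0.0527). Rab2b, Rab40c, Rab13, Rab33b and Rab11b kept the call in 8, 9, 9, 7 and 8 of 12 fits without 1 library. Of the genes lowered, Rab39, Rab4a and Rab27a reached 1 FPKM in no IL-4 library, so they were tested by virtue of the control libraries where they were high. Rab27a, which docks secretory granules and exosome-bearing bodies, passed 1 FPKM in a single control library (1.03) and stood at 0.151 to 0.321 after IL-4.

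LPS was next compared within IL-4-pretreated BMDMs, where it raised 6 RAB genes and lowered 22. These are 14.3% and 52.4% of the members beside 15.0% and 57.9% of all rows, with medians of -0.24 and -0.41. Of the genes lowered, Rab23, Rab39 and Rab4a were below 1 FPKM in every library compared here. Rab3a and Rab6b reached it only in the IL-4 libraries of this comparison, where they were high. After median scaling the counts were 13 higher and 10 lower, which are 31.0% and 23.8% of the members beside 23.5% and 36.3% of all rows. With that scaling 7 of the 22 falls (Rab1, Rab13, Rab14, Rab18, Rab2a, Rab35 and Rab7) changed sign. Under quantile normalization 13 of the 22 falls were still called, and 4 changed sign. Rab32, Rab20, Rab12, Rab22a and Rab10 were called higher here as without IL-4, and the sixth was Rab21. Of the 42 genes, 36 had the same sign of LPS change without and after IL-4, over libraries that the contrasts do not share. The share of all rows with the same sign was not computed. The median over all rows was negative in both contrasts (-0.44 and -0.41), so the count is not a result about RAB genes.

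Rab21, an early endosome RAB of integrin traffic, measured 32.0, 35.9 and 31.8 FPKM in control, 36.7, 34.7 and 42.4 after IL-4, 32.8, 35.4 and 36.6 after LPS, and 43.8, 53.8 and 52.0 after IL-4+LPS. Its IL-4+LPS libraries were above the other 9. The log2 fold change was 0.39 ± 0.10 over IL-4 and 0.50 ± 0.10 over LPS (adjusted p = 0.00504 and 0.00345), and 0.07 (95% interval -0.15 to 0.29) for LPS over control, which was 0.43 and past the threshold after median scaling (adjusted p = 0.00463). Under quantile normalization the LPS change over control was 0.13 and not past the threshold (adjusted p = 0.21). The difference between the LPS responses of Rab21 with and without IL-4 did not pass the threshold (0.32 ± 0.14, adjusted p = 0.201).

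The difference between the LPS response after IL-4 and without it was tested for each gene as an interaction. It was positive for 3 RAB genes and negative for 2, which are 7.14% and 4.76% of the members beside 4.58% and 4.63% of all rows. The positive genes were Rab43, Rab32 and Rab39, and the negative genes were Rab31 and Rab10. With the replicate number as a block, 4 RAB genes were positive and 5 negative (share of all rows not computed).

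Rab31, which has been tied to Fc receptor uptake in macrophages as well as to Golgi-to-endosome transport, gave the largest interaction. It measured 93.1, 104 and 103 FPKM in control, 79.5, 89.8 and 87.7 after IL-4, 86.2, 96.0 and 91.8 after LPS, and 29.2, 20.9 and 21.8 after IL-4+LPS. LPS overlapped both control and IL-4, and the IL-4+LPS libraries lay far below the other 9. Neither agent alone passed the threshold on the deposited scale: the log2 fold change was -0.13 for LPS (95% interval -0.39 to 0.12) and -0.23 for IL-4 (-0.48 to 0.03). Under quantile normalization both changes of Rab31 passed (-0.27 and -0.33, adjusted p = 0.0443 and 0.0332). In IL-4-pretreated BMDMs LPS lowered it by -1.81 ± 0.12 (adjusted p = 2.92e-07), which is 3.51-fold, and the interaction was -1.68 ± 0.16 (adjusted p = 0.000229). Each of the 12 fits without 1 library kept the interaction past the threshold, with values from -1.82 to -1.59.

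For Rab32 the interaction was 0.86 ± 0.20 (adjusted p = 0.0259). LPS raised it 2.53-fold without IL-4 and 4.58-fold after it, from an IL-4 level that was 1.82-fold below control. The levels reached with LPS did not separate, at 79.3 ± 7.5 FPKM without and 80.4 ± 17.5 after IL-4 (log2 difference -0.001, 95% interval -0.32 to 0.32). The interaction of Rab32 was past the threshold in 4 of the 12 fits without 1 library, those without control replicate 1, LPS replicate 1 or 3, or IL-4+LPS replicate 1.

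Rab20 differed from Rab32 in the level reached. IL-4 in the absence of LPS lowered Rab20 by 0.98 and Rab32 by 0.86 on the log2 scale. With LPS, the IL-4-pretreated libraries were 2.27-fold below the LPS libraries for Rab20 (-1.18 ± 0.10, log2 fold change ± SE, adjusted p = 9.86e-06). The response of Rab20 to LPS was 1.82 without and 1.62 after IL-4, and the interaction was -0.20 (95% interval -0.51 to 0.11, adjusted p = 0.429). In GENCODE vM21, 25.6% of the exonic bases of Rab20 overlap E230013L22Rik on the other strand.

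Rab43, a Golgi RAB also linked to antigen cross-presentation, measured 27.8, 29.9 and 26.7 FPKM in control, 23.6, 22.3 and 23.5 after IL-4, 15.9, 12.1 and 11.0 after LPS, and 20.0, 20.4 and 20.2 after IL-4+LPS. The 4 groups did not overlap. LPS lowered it by -1.07 ± 0.11 without IL-4 (adjusted p = 7.00e-06), the change after IL-4 was -0.18 ± 0.11 (adjusted p = 0.149), and the interaction was 0.89 ± 0.15 (adjusted p = 0.0051). In GENCODE vM21, 75.4% of the exonic bases of Rab43 are shared with the same-strand readthrough gene model Gm45140, so its value is uncertain to the extent that the authors' counting split these reads.

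Rab39 had an interaction of 0.84 ± 0.14 (adjusted p = 0.00404), between a fall of -1.09 ± 0.10 from control to LPS and of -0.26 ± 0.10 from IL-4 to IL-4+LPS. Its IL-4 level was already under 0.5 FPKM, where a pseudocount of 1 compresses any further fall. With a pseudocount of 0.1 the interaction was 1.29 and did not pass (adjusted p = 0.0867). Rab10 had an interaction of -0.58 ± 0.15 (adjusted p = 0.033), with an LPS response of 2.01-fold without and 1.34-fold after IL-4. The call on Rab10 was kept in 4 of the 12 fits without 1 library, those without control replicate 1, LPS replicate 1 or 2, or IL-4+LPS replicate 1. Rab19 had a difference of -0.69 ± 0.36 that did not pass (adjusted p = 0.292).

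**Figure D4:**
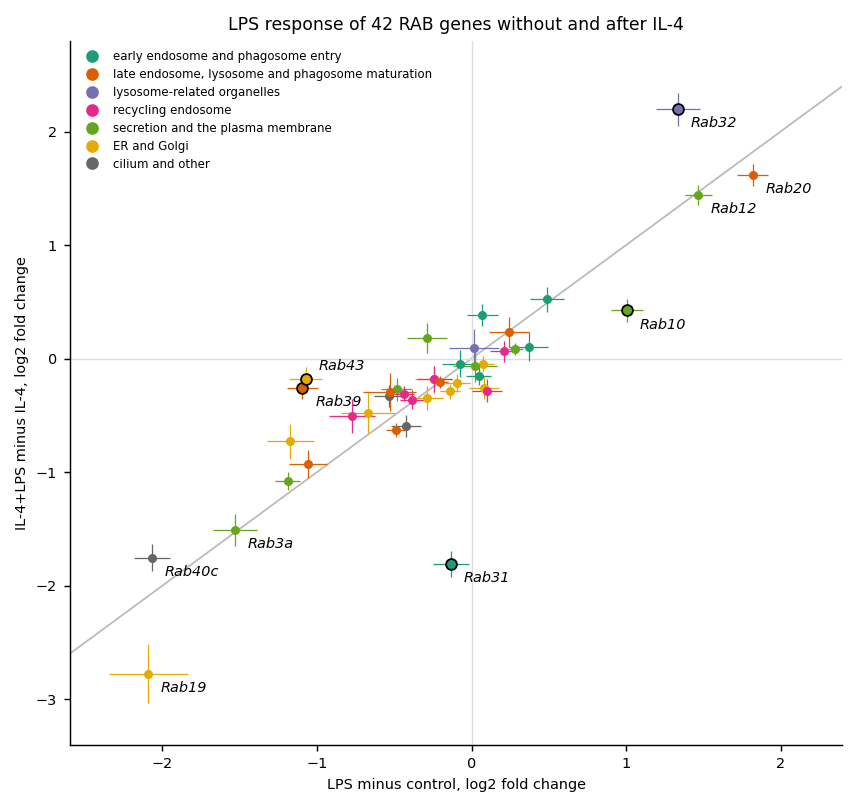
Log2 fold change of 42 RAB genes for LPS minus control (x axis) and for IL-4+LPS minus IL-4 (y axis), with bars of 1 SE and colours for role. The line marks equal responses, and the points with a black rim, Rab31, Rab10, Rab32, Rab43 and Rab39, are those with an interaction past the threshold.

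The last comparison set the groups with LPS against each other, to show what IL-4 pretreatment changed in activated BMDMs. IL-4+LPS libraries had 3 RAB genes higher and 7 lower than LPS libraries, which are 7.14% and 16.7% of the members beside 15.0% and 15.8% of all rows. The medians were -0.08 over the members and -0.03 over all rows. The genes higher were Rab43, by 0.62 ± 0.11, Rab21, by 0.50 ± 0.10, and Rab3d, by 0.24 ± 0.08 (log2 fold change ± SE, adjusted p = 0.00167, 0.00345 and 0.0422). The call on Rab3d was kept in 2 of 12 fits without 1 library, those without control replicate 1 or IL-4+LPS replicate 2. With the replicate number as a block, 6 RAB genes were higher and 14 lower, against 3 and 7 without it (share of all rows under the block not computed).

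The genes lower were Rab31 (-1.90), Rab20 (-1.18), Rab34 (-0.71), Rab33b (-0.40), Rab11a (-0.37), Rab8a (-0.26) and Rab24 (-0.23), given as log2 fold changes. They include 3 of the 7 tested genes of the late endosome and phagosome group, where 15.8% of all rows were lower. Rab8a showed the narrowest spread, at 66.8, 66.9 and 66.3 FPKM in LPS against 54.1, 55.0 and 57.5 after IL-4+LPS, where control had 55.6, 52.8 and 55.5. Its IL-4+LPS libraries were thus near the control level and apart from LPS (adjusted p = 0.00283). Rab11a, at 63.7, 55.7 and 54.6 FPKM in LPS and 41.9, 45.1 and 46.5 after IL-4+LPS, differed by -0.37 ± 0.09 (adjusted p = 0.0103). Rab33b, a Golgi RAB that binds the autophagy protein ATG16L1, was lower with IL-4 both in LPS-treated BMDMs, where it fell by 0.40, and without LPS, where it fell by 0.34 on the log2 scale. The call without LPS was kept in 7 of 12 fits that left out 1 library and was lost under quantile normalization (adjusted p = 0.0638).

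**Figure D5:**
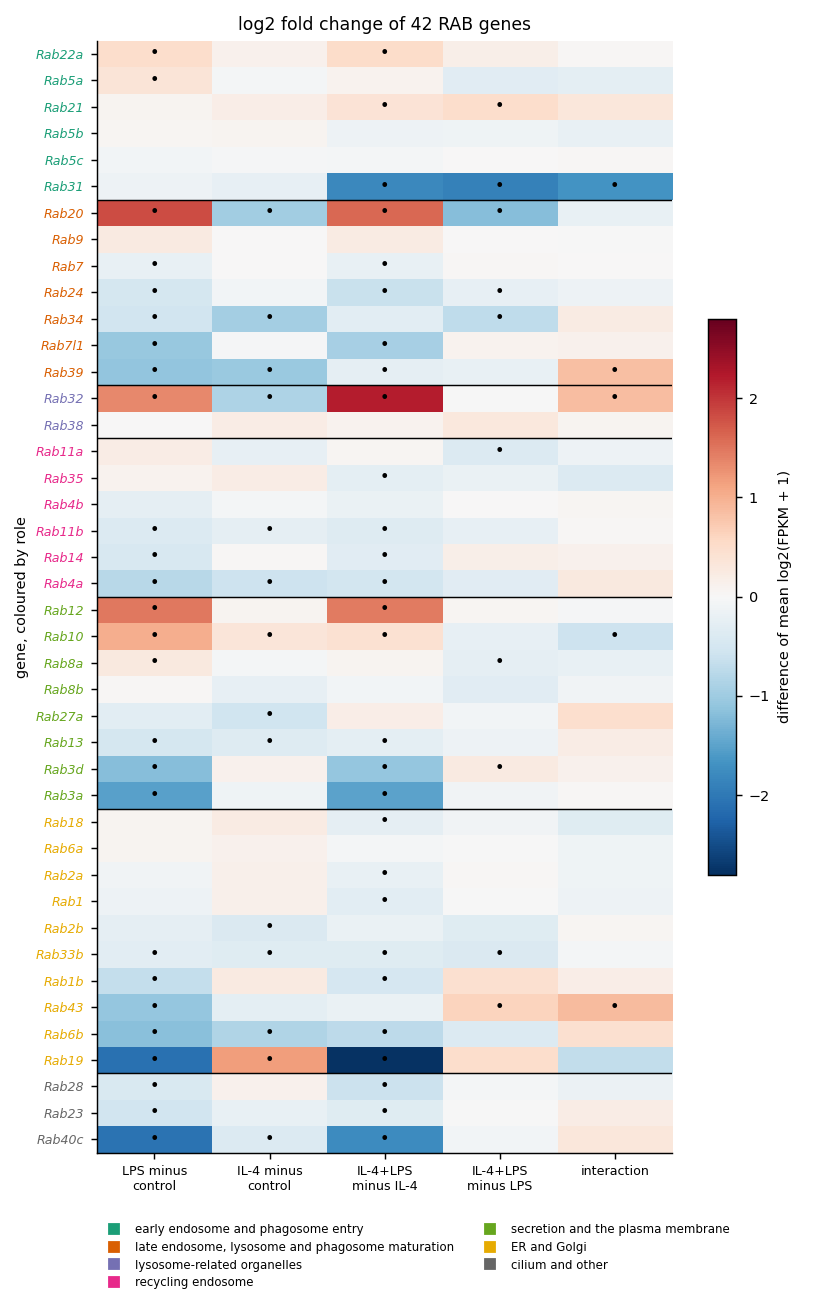
Log2 fold change (colour) of the 42 tested RAB genes (y axis, grouped by role and ordered by the LPS change) in the 4 comparisons and the interaction (x axis), where a dot marks an adjusted p below 0.05 on the deposited scale. Rab38, Rab4b, Rab5b, Rab5c, Rab6a, Rab8b and Rab9 carry no dot, and the other 35 genes carry at least 1.

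The proteins that switch RABs on and off, and those that read the active form, were taken as 4 lists. Under LPS alone, where 16.9% of all rows were higher and 57.7% lower, 6 of 29 tested GEF genes were higher and 21 lower, 2 of 34 GAP genes were higher and 26 lower, 4 of 30 effector genes were higher and 19 lower, and of 8 escort and GDI genes 0 were higher and 6 lower. The list medians were -0.44 for GEFs, -0.76 for GAPs, -0.65 for effectors and -0.51 for the escort and GDI genes, beside -0.44 over all rows. IL-4 alone, which raised 16.0% and lowered 21.0% of all rows, raised 4 and lowered 11 GEFs, raised 2 and lowered 11 GAPs, raised 2 and lowered 8 effectors, and raised 0 and lowered 3 escort and GDI genes, with medians of -0.12, -0.18, -0.21 and -0.31. Between IL-4+LPS and LPS libraries, where 15.0% of all rows were higher and 15.8% lower, 5 GEFs were higher and 4 lower, 2 GAPs higher and 10 lower, 2 effectors higher and 5 lower, and 0 escort and GDI genes higher and 3 lower.

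Effectors held the largest single changes. Rab11fip1, which binds Rab11 on recycling endosomes, stood at 1.92 FPKM in control and 46.2 after LPS (log2 fold change 3.96 ± 0.29, adjusted p = 6.80e-07) and at 2.52 after IL-4 and 31.9 after IL-4+LPS (group means). Its relative Rab11fip5 moved the other way, from 73.9 FPKM in control and 53.4 after IL-4 to 10.7 after LPS and 7.24 after IL-4+LPS. The same opposition held for the Rab5 effectors Appl1, at 7.23 FPKM in control and 23.2 after LPS, and Appl2, at 33.8 and 9.30. Among the MICAL family, Micall2 rose from 6.17 to 19.8 FPKM and Mical1 fell from 17.8 to 1.35. Plekhm1, a Rab7 effector of lysosome fusion, fell from 44.5 FPKM in control to 4.88 after LPS and from 54.2 after IL-4 to 5.67 after IL-4+LPS. Each of these LPS changes passed the threshold without and after IL-4 and kept its direction after median scaling.

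Other regulators changed under IL-4 alone, and several of them also under LPS. Rab3il1, an exchange factor for Rab8, rose from a mean of 105 FPKM in control to 236 after IL-4 and stood at 16.1 after LPS and 54.5 after IL-4+LPS. It was higher with IL-4 both without LPS (1.15 ± 0.17, adjusted p = 0.000485) and with it (1.71 ± 0.17, adjusted p = 3.41e-05), comparisons that use separate libraries. The DENN-domain exchange factor gene Dennd1c fell from 15.5 FPKM in control to 4.78 after IL-4 and from 11.9 after LPS to 4.03 after IL-4+LPS. The Rab3 exchange factor gene Madd fell from 16.5 to 7.85 FPKM under IL-4 (-0.98 ± 0.23, adjusted p = 0.00789), and the GAP gene Rabgap1l from 4.07 to 1.38 (-1.08 ± 0.20, adjusted p = 0.00208). The GAP gene Tbc1d16, at 1.83 FPKM in control, rose to 3.45 after IL-4 and stood at 0.157 after LPS and 0.397 after IL-4+LPS. Micall1, an effector on recycling endosomes, rose from 5.48 to 9.67 FPKM under IL-4 and was at 3.52 and 2.94 after LPS and IL-4+LPS, with an interaction of -0.92 ± 0.12 (adjusted p = 0.00114).

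Mon1b, a subunit of the Rab7 exchange factor, was highest in IL-4+LPS libraries, at a mean of 16.8 FPKM beside 6.87 in control, 6.99 after IL-4 and 10.6 after LPS. Rilpl2, a relative of the Rab7 effector Rilp, stood at 84.2 FPKM in control, 95.9 after IL-4, 73.0 after LPS and 109 after IL-4+LPS. Both were higher in IL-4+LPS than in LPS libraries, by 0.60 ± 0.12 and 0.58 ± 0.11 (log2 fold change ± SE, adjusted p = 0.00429 and 0.00197).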

How the data were processed

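The series holds 12 poly-A RNA-seq libraries of mouse BMDMs in 4 groups of 3. FPKM values were deposited per gene by the authors, who prepared TruSeq libraries, aligned reads with TopHat2 2.0.7 and estimated FPKM with Cufflinks 2.0.2 on mm10, per the submitters' processing notes. The annotation and the use of strand are not given in the sources used here, and FPKM hides the read counts, so no counting error can be given per value. FPKM divides by all mapped fragments, so a shift of many genes moves the others.

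Groups came from the sample labels. The 12 tables were joined by row, and rows with at least 1 FPKM in at least 1 library (11191 of 23847) were fitted as log2(FPKM + 1) with limma 3.58.1 in R 4.3.3, a group-means model with a trend in the prior variance over all 12 libraries. Fold changes on this scale understate changes of low genes. P-values are two-sided and were Benjamini-Hochberg adjusted over all 11191 rows, with a threshold of 0.05. Errors are SE of the fit, or SD where stated. The step was tested on simulated data. Contrasts were the 4 pairwise comparisons and the interaction, (IL-4+LPS minus IL-4) minus (LPS minus control).

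The RAB members, their role groups, the regulator and marker lists, and the rule for naming genes were chosen with earlier results of these data known. All 12 values were given for genes called with a change of at least 2-fold under LPS, under IL-4 or between IL-4+LPS and LPS, for the 2 strongest calls in each direction of each contrast, and for the highest gene of each role. Further genes were named because their calls complete a count of a role group, and Rab34, Rab8a and Rab11a were given by library after their values were seen. Promoter windows came from RefSeq (GRCm38.p6), where 48 of 58 members had an entry off chromosome 18, and gene overlaps from GENCODE vM21. The alternatives were a pseudocount of 0.1, no filter, a filter in 3 samples, quantile normalization, median scaling, a replicate block, unadjusted p-values and leaving out each library, and, added after seeing the data, replicates 2 and 3 only. Python 3 with pandas and matplotlib drew the plots.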

Additional observations from a re-analysis of the deposited data

Results flagged for a closer look

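The LPS response after IL-4 differed from that without IL-4 for 5 RAB genes, by an interaction term in limma (adjusted p below 0.05 over all tested rows). The difference in log2 fold change was -1.68 for Rab31 (adjusted p = 0.000229), 0.89 for Rab43 (adjusted p = 0.0051), 0.84 for Rab39 (adjusted p = 0.00404), 0.86 for Rab32 (adjusted p = 0.0259) and -0.58 for Rab10 (adjusted p = 0.033). Rab31 and Rab43 kept the call in each of the 12 fits without 1 library, and Rab32 and Rab10 kept it in 4. Rab39 was tested by virtue of its control libraries, and its call did not pass with a pseudocount of 0.1 (1.29, adjusted p = 0.0867). Under quantile normalization Rab39 and Rab10 did not pass (adjusted p = 0.0603 and 0.0709).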

How the results depend on the processing

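Counts of RAB genes called were within 1.5 times the reported count under every alternative not named here. Under median scaling, 18 genes were higher and 10 lower for LPS minus control, and 13 were higher and 10 lower for IL-4+LPS minus IL-4. Among the genes plotted by library, the scaling also reversed Rab7 (0.162) for LPS minus control, and Rab14 (0.049), Rab5c (0.316) and Rab7 (0.159) for IL-4+LPS minus IL-4. The value for Rab5c was called only under that scaling. Among the other genes called lower, Rab33b changed sign for LPS minus control, and Rab1, Rab13, Rab18, Rab2a and Rab35 for IL-4+LPS minus IL-4. Quantile normalization left 13 lower for IL-4+LPS minus IL-4, 1 higher for IL-4 minus control and 1 lower in the interaction, and no filter left 1 higher for IL-4 minus control. Unadjusted p-values gave 5 higher and 13 lower for IL-4+LPS minus LPS, and 5 higher and 5 lower in the interaction. Leaving out 1 library at a time gave 1 to 2 higher and 7 to 13 lower for IL-4 minus control, with 7 lower without control replicate 2, and 1 to 2 lower in the interaction.

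With the replicate block, 8 genes were higher for IL-4 minus control, 6 higher and 14 lower for IL-4+LPS minus LPS, and 5 lower in the interaction, and it ended no call on the genes plotted by library. With replicates 2 and 3 only, an alternative added after seeing the data, these counts were 6, 6, 14 and 5. Deviations of same-numbered libraries from their group means correlated at 0.0024 to 0.386 (mean 0.124), above 0.1 in 11 of 18 pairs and negative in none. Whether the numbers pair the libraries cannot be told from the labels, so the fit without the block was kept as the main one. No called value of a gene plotted by library changed sign under an alternative other than median scaling. The cause of each change was not tested. FPKM gives no read counts, so the precision of genes near 1 FPKM is unknown.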
